A study of Mus musculus with 5 samples.

Results

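Bbs9 circular RNAs were the most abundant circular RNA (circRNA) output of any gene in these mouse testis libraries. The members are all rows of the deposited circRNA table whose host gene is Bbs9, 20 of 11957 rows in all. The gene was chosen by the number and the SRPBM level of its circRNAs in these libraries, so its high rank and its leading circles are given as a description, without a test. Male C57BL/6J mice aged 10 weeks, 6 per group by the labels, were given saline or triptolide by gavage, the latter at a daily 50 µg per kg, and testes were taken at 35 days. Triptolide is a diterpenoid of the vine Tripterygium wilfordii that binds a subunit of the transcription factor TFIIH. There were 2 control (saline) and 3 triptolide libraries, made from whole testis after removal of ribosomal RNA. The labels do not say whether a library is 1 mouse or a pool, so every p-value measures only the spread between libraries. The 3 triptolide columns share 1 header and are called triptolide A, B and C.

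Bbs9 encodes a subunit of the BBSome, a protein complex that works at the base of cilia and carries membrane proteins into and out of them. Mutations in its subunits cause Bardet-Biedl syndrome in people, and male mice that lack a BBSome subunit such as Bbs4 fail to form sperm tails, which are modified cilia. A circRNA forms when the splice donor at the end of an exon is joined backwards to the splice acceptor at the start of the same or an earlier exon (back-splicing). The closed product has no free ends and is known to be more stable than linear mRNA. In testis, circRNAs of many germ-cell genes are known to accumulate as spermatids mature.

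The values are SRPBM, by name a circRNA's back-splice junction reads relative to all mapped reads. One read was worth 8.29 to 9.57 SRPBM, and the libraries held 32804 to 44318 junction reads. Control 1 stood apart from the other 4 libraries. Of 346 circRNAs with at least 100 SRPBM in each of the others, control 1 listed 66 at 0, while each of the other 4 libraries listed 1 of 266 to 280 at 0 by the same count. The sources used here do not give the meaning of a listed 0. The Bbs9 sum, its share of all signal and the circles named for a difference are therefore given with and without control 1, and the other comparisons with the value of each library or the range of each group. Of the marker genes for testis cells, 6 of 8 meiotic, 3 of 12 spermatid and 2 of 6 spermatogonial markers had circRNAs, as did 1 of 5 macrophage and blood markers. None of 8 Sertoli cell markers, 3 peritubular markers or 3 endothelial markers was a host, and 1 of 6 Leydig cell markers was, at up to 57 SRPBM. The lack of a circRNA row does not show the lack of a cell type.

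Almost the whole Bbs9 pool was built on a single splice site. All 20 circRNAs lie on chromosome 9 between positions 22490818 and 22887996 and inside the gene, which RefSeq places on the plus strand. On that strand the start of a circle is the acceptor side of the back-splice and its end is the donor side. The 20 rows use 10 start positions and 11 end positions. The start at 22643745 was used by 6 circRNAs, which together held 97.0% and 95.9% of the Bbs9 sum in control 1 and 2 and 94.5%, 92.3% and 95.5% in triptolide A, B and C. The end at 22679064 was also used by 6 circRNAs, from 6 different starts, and held 62.0% and 62.4% in control and 64.9%, 61.3% and 60.9% in triptolide. In total, 11 of the 20 circRNAs used one or both of these positions, and they carried 93.6% to 98.4% of the sum in each library. No exon annotation was used here, so the circles are not assigned to numbered exons.

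**Figure D1:**
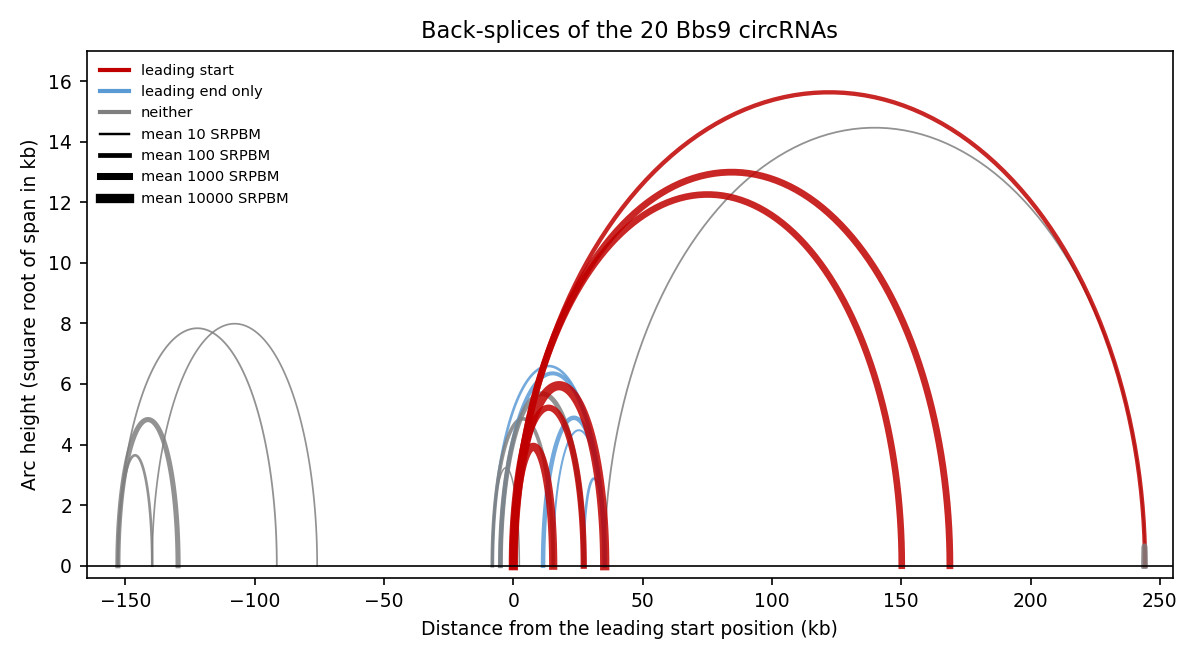
Each arc joins the start and the end of 1 of the 20 Bbs9 circRNAs, on a horizontal axis of distance from the leading start position in kilobases; arc height is the square root of the span in kilobases and line width rises with the logarithm of the mean SRPBM over 5 libraries. Red arcs share the leading start, blue arcs share the leading end only, and the widest arcs are all red.

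The splice ends show the reach of this site. From 22643745, back-splices ran to 6 different ends, at 22659145, 22670957, 22679064, 22793933, 22812543 and 22887996, so the circles spanned from 15400 to 244251 bases of genome. The other shared starts were 22490818 and 22635611, with 3 circRNAs each, and 22638730, with 2. Among ends, 22887996 was shared by 3 circRNAs, and 22659145 and 22670957 by 2 each. The remaining 6 starts and 7 ends were used once. Several positions lie close together as a start followed by an end. There were 5 such pairs within 500 bases, at 22504045 and 22504109, 22659050 and 22659145, 22670785 and 22670957, 22678912 and 22679064, and 22887581 and 22887996. They are 64, 95, 172, 152 and 415 bases apart. The last pair is itself listed as a circRNA, the shortest of the gene.

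The leading circle ran from 22643745 to 22679064, a span of 35319 bases. It had 14656 and 9396 SRPBM in control 1 and 2 and 7337, 8672 and 7385 SRPBM in triptolide A, B and C, which correspond to 1666, 1134, 767, 979 and 848 junction reads. In each of the 5 libraries this was the highest value of any circRNA in the table, from 1.30 to 2.47 times the highest circRNA of another gene. It alone made up 4.19% and 2.62% of all circRNA signal in control and 2.35%, 2.23% and 2.42% in triptolide. The second circle of the gene, from 22643745 to 22659145, had 5366 and 3239 SRPBM in control against 2343, 2905 and 2604 SRPBM in triptolide. Both circles start at the same acceptor, and the leading one was 2.92 ± 0.15 times as abundant (SD over 5 libraries, range 2.73 to 3.13).

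The next 3 circles also start at 22643745 and end farther apart. The one to 22812543, spanning 168798 bases, had 1583 and 638 SRPBM in control against 382, 620 and 714 SRPBM in triptolide. The one to 22793933, spanning 150188 bases, had 1055 and 679 SRPBM in control against 449, 611 and 592 SRPBM in triptolide. The one to 22670957, spanning 27212 bases, had 668 and 505 SRPBM in control against 334, 540 and 304 SRPBM in triptolide. Control 1 was the highest library for all 5 of these circles. Together the 5 made up 92.3% to 96.4% of the Bbs9 sum.

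The sixth circle, from 22887581 to 22887996, went the other way in control 1. It spans 415 bases, shares its end with the longest Bbs9 circle and was listed at 0 in control 1, with 190 SRPBM in control 2 and 267, 478 and 261 SRPBM in triptolide. Control 1 thus held the highest value of the 5 leading circles and a listed 0 for this one, which is 1 of the 66 described above. The seventh, from 22490818 to 22514093, begins at the first of the start positions, which 3 circRNAs use, and shares no end with the pool around 22643745. It had 184 and 132 SRPBM in control against 162, 186 and 78 SRPBM in triptolide, and the groups overlapped.

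Of the 10 most abundant circles, the last 3 combine one of the common ends with another position. The circle from 22638730 to 22670957 had 105 and 182 SRPBM in control against 28, 168 and 95 SRPBM in triptolide. The circle from 22655225 to 22679064 had 131 and 41 SRPBM in control against 95, 88 and 52 SRPBM in triptolide. The longest circle of the gene, from 22643745 to 22887996, had 131 and 91 SRPBM in control against 28, 0 and 87 SRPBM in triptolide. At 0 to 22 reads each, these 3 varied between libraries of the same group by several fold.

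**Figure D2:**
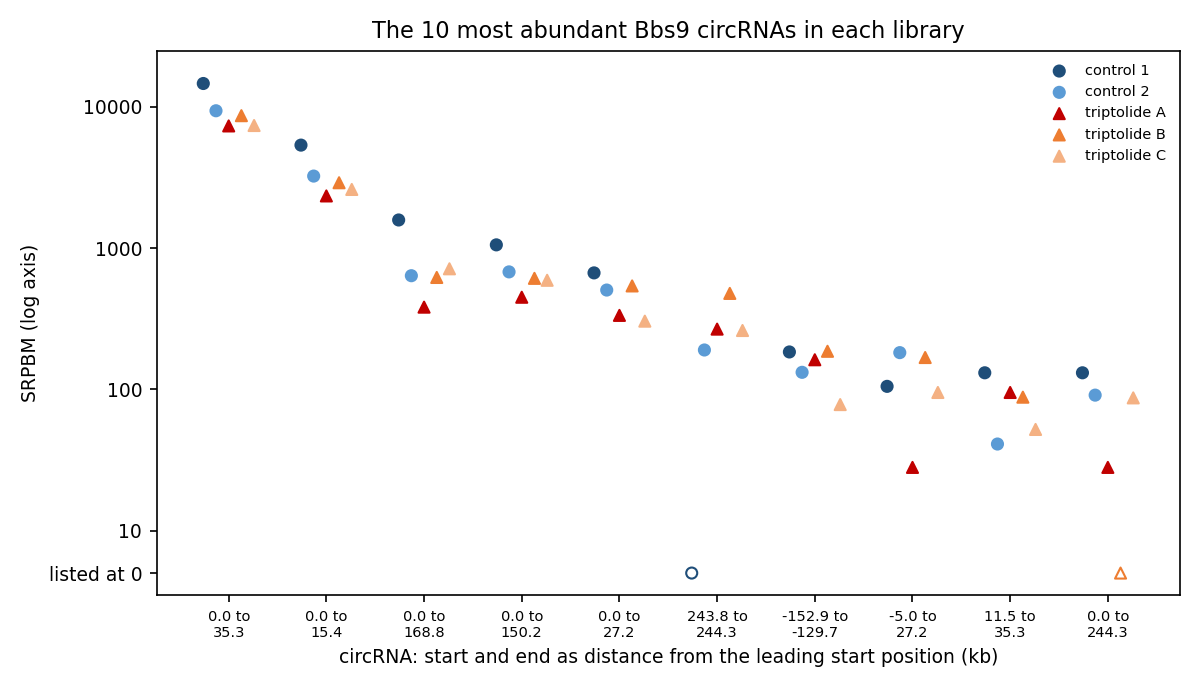
SRPBM on a log axis of the 10 most abundant Bbs9 circRNAs, 1 point per library, with circles for control and triangles for triptolide; each circRNA is named by the distance in kilobases of its start and end from the leading start position, and open symbols mark values listed at 0. Control 1 lies on top for the first 5 circRNAs and is listed at 0 for the sixth, from 22887581 to 22887996.

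The other 10 circRNAs were rare. Those from 22638730 to 22679064 and from 22635611 to 22659145 reached 123 and 79 SRPBM in their highest library. The remaining 8 averaged under 20 SRPBM, with at most 61 SRPBM or 7 reads in any library. Over all 20, 8 circRNAs were above 0 in all 5 libraries, 6 in 2 to 4 libraries and 6 in a single library. The number above 0 was 14 and 13 in control and 13 in each triptolide library. Reads thinned to the smallest library total of 32804 gave 13.8 and 12.6 against 13, 12.4 and 12.7 circRNAs with at least 2 reads (two-sided exact permutation p = 0.5 over the 10 assignments of 5 libraries).

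The 2 leading circles kept close to the same shares of the pool in all 5 libraries, while the third varied more. The leading circle held 60.6% and 61.9% of the Bbs9 sum in control 1 and 2 and 63.8%, 60.0% and 60.3% in triptolide A, B and C. Counted in reads, the 95% Wilson intervals were 58.7% to 62.4% and 59.7% to 64.1% in control and 61.0% to 66.4%, 57.6% to 62.3% and 57.7% to 62.8% in triptolide. These intervals cover counting error only, since the reads carry no molecular identifiers. The difference between group means was 0.12 percentage points (two-sided exact permutation p = 1). The second circle held 22.2% and 21.3% in control and 20.4%, 20.1% and 21.3% in triptolide. The third, from 22643745 to 22812543, held 6.54% and 4.20% in control against 3.32%, 4.29% and 5.83% in triptolide, with overlap between the groups. The share of the sixth circle did not overlap between the groups. It was 0% and 1.25% in control against 2.32%, 3.31% and 2.13% in triptolide (two-sided exact permutation p = 0.1, which is the lowest the design can give, and 0.8 adjusted over the 10 circles tested). Of the 10 circles, 0 had an adjusted p under 0.05, which this design cannot reach.

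**Figure D3:**
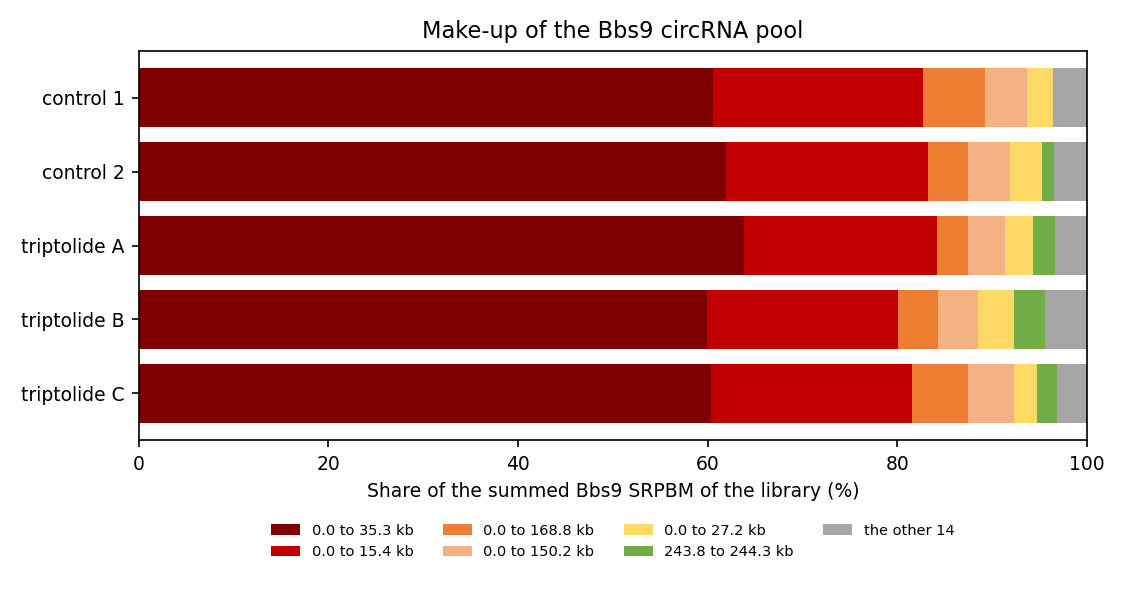
Share of the summed Bbs9 SRPBM of each library, in percent, held by the 6 most abundant circRNAs and by the other 14 together, each named by the distance in kilobases of its start and end from the leading start position. The darkest segment, the leading circle, takes 60.0% to 63.8% in all 5 libraries.

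Summed over its circRNAs, Bbs9 had lower values in the triptolide libraries than in both controls, but the difference did not pass the test and rested mainly on control 1. The sums were 24194 and 15174 SRPBM in control 1 and 2 and 11500, 14461 and 12240 SRPBM in triptolide A, B and C. Control 1 was 1.59 times as high as control 2, and control 2 was 1.19 times as high as the triptolide mean. The mean was 19684 ± 6378 SRPBM over the controls (SD, n = 2) and 12734 ± 1541 SRPBM over the triptolide libraries (SD, n = 3). An exact permutation test gave p = 0.1 (two-sided). In a limma fit over the sums of 2342 host genes the log2 fold change of Bbs9 was -0.60 ± 0.29 (SE), with adjusted p = 0.77. That fit called 0 host genes in either direction (0%), and 147 (6.28%) were at an unadjusted p under 0.05. On the recovered reads edgeR called 0 of the 848 host genes it tested. DESeq2 called 1 of 2342 (0.0427%), the protamine gene Prm2, named after its values were seen. In simulated reads with a 4-fold change in 172 host genes, limma called 0 of them, edgeR 169 and DESeq2 146. The simulation gave all genes the same spread and had no floor of 2 reads. There limma tested 3088 host genes against 2342 here, so the simulation does not measure its power in these data. A lack of calls in limma is not taken to show a lack of change. Every triptolide library was below both controls for 11.5% of the host genes tested, so the lack of overlap by itself is common. Without control 1 the log2 fold change of Bbs9 was -0.26 (adjusted p = 0.95, limma), and without control 2 it was -0.93 (adjusted p = 0.022, limma). These fits called 0.0473% and 2.28% of host genes, and take the lone control to vary like the triptolide libraries.

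The share of Bbs9 in all circRNA signal of a library was also higher in both controls than in every triptolide library. It was 6.92% and 4.23% in control against 3.69%, 3.71% and 4.01% in triptolide. In reads, the Wilson intervals were 6.63% to 7.13% for control 1 and 4.01% to 4.39% for control 2, and 3.47% to 3.88%, 3.51% to 3.86% and 3.78% to 4.19% for triptolide A, B and C. Control 1 was thus far above the rest, whereas the intervals of control 2 and triptolide C overlapped. The difference of means, triptolide minus control, was -1.77 percentage points, and -0.42 without control 1. The total of all other circRNAs did not separate the groups, with 325269 and 343929 SRPBM in control against 300333, 375248 and 293293 SRPBM in triptolide (two-sided exact permutation p = 0.8). In bulk tissue, fewer cells of a type and less RNA per cell cannot be told apart. The circRNAs of the 3 spermatid markers that were hosts (Prm2, Odf2 and Crem) summed to 1018 and 1022 SRPBM in control and to 528 to 879 SRPBM in triptolide, without overlap. Within that sum Prm2 had 703 and 290 against 86, 79 and 52 SRPBM, whereas Crem, at 272 and 732 against 437, 669 and 433 SRPBM, and Odf2 overlapped. Prm1, Tnp1 and Tnp2 had no circRNA. The meiotic markers overlapped, at 2370 to 3114 and 2197 to 2730 SRPBM. The part of these cells in the Bbs9 values was not tested.

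**Figure D4:**
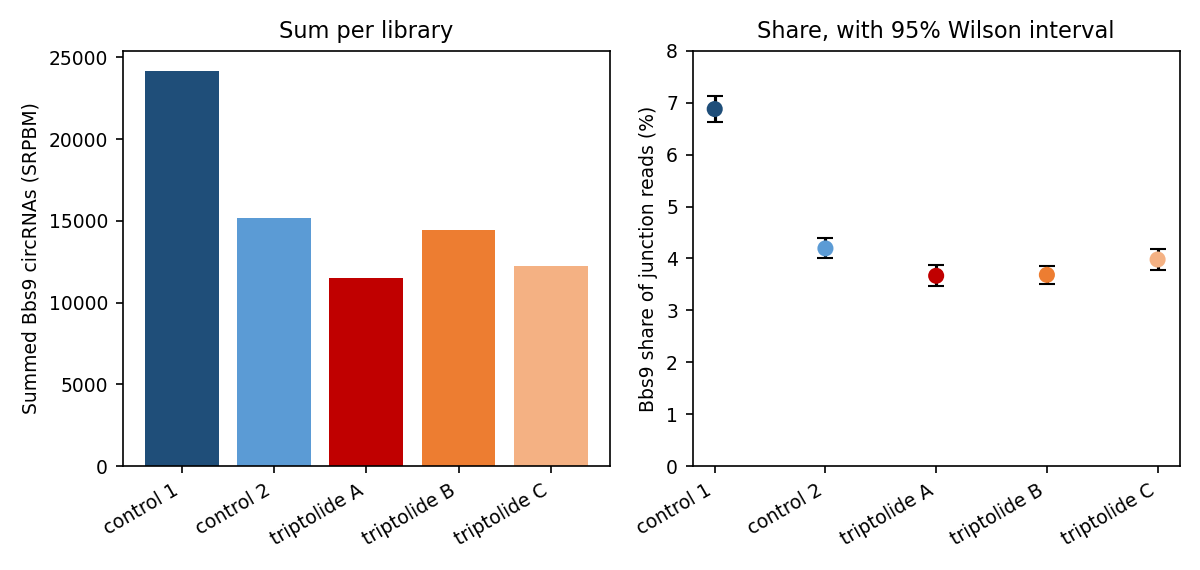
Left, the summed SRPBM of all Bbs9 circRNAs in each library; right, the share of Bbs9 in all circRNA junction reads of the library in percent, with 95% Wilson intervals that cover counting error only. Control 1 stands at 24194 SRPBM, and the other 4 libraries lie between 11500 and 15174 SRPBM.

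Single Bbs9 circRNAs were tested in the same way among 5457 circRNAs above 0 in at least 2 libraries. Of the 20 members, 14 were tested and 0 passed in limma (adjusted p of 0.68 to 0.9999), as did 0% of all circRNAs tested in either direction. At an unadjusted p under 0.05 there were 360 circRNAs (6.6%), of which 1 was from Bbs9. On recovered reads edgeR called 0 of the 952 circRNAs that passed its own filter, and DESeq2 called 0 of 5457. The change fitted in limma was below 0 for 10 of the 14, against 54.3% of all circRNAs tested. The median log2 fold change was -0.59 for the 14 and -0.06 for all tested. These 14 share splice sites and libraries and are not independent. Every triptolide library lay below both controls for 4 of the 14, against 10.5% of all tested, and above both for 1, against 6.78%.

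The 4 without overlap on the lower side all start at 22643745. They are the leading circle, with 12026 ± 3719 SRPBM over the controls (SD, n = 2) and 7798 ± 757 SRPBM over the triptolide libraries (SD, n = 3), and the circles to 22659145, 22793933 and 22887996. Their log2 fold changes were -0.59 ± 0.29, -0.67 ± 0.30, -0.62 ± 0.31 and -1.59 ± 0.80 (SE), each with an adjusted p of 0.68 in limma. Without control 1 they were -0.27, -0.31, -0.31 and -1.36, each with an adjusted p of 0.90 in limma. For the circle from 22643745 to 22887996 the gap was narrow, with 91 SRPBM or 11 reads in control 2 against 87 SRPBM or 10 reads in triptolide C. The one on the higher side was the circle from 22887581 to 22887996, with 2.56 ± 0.94 (SE) and an adjusted p of 0.68 in limma. That value includes the listed 0 of control 1, and without control 1 it was 0.72. Without control 2 the adjusted p in limma was 2.0e-16 for this circle and 0.0014 for the circle from 22643745 to 22812543, in a fit with a lone control that called 2.85% of circRNAs, against 0.0421% without control 1. In simulated reads with a 4-fold change in 174 circRNAs, limma called 0 of them, whereas edgeR called 166 and DESeq2 118 from the same simulated libraries. With the settings given above, limma tested 9788 circRNAs there against 5457 here. The simulation does not measure the power of limma in these data, and its lack of calls among circRNAs is not taken to show a lack of change.

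Among the 3496 host genes of the table, Bbs9 ranked 31 by its number of circRNAs but 1 by its summed SRPBM in every library. The next host in each library was Ep400, which encodes a chromatin remodelling ATPase, at 7775 and 6469 SRPBM in control against 6178, 6569 and 7236 SRPBM in triptolide. Without its leading circle, Bbs9 would still rank 1 or 2. Of 184 hosts with at least 10 circRNAs, the median share of the top circRNA was 34.8%, and Bbs9, at 61.3% ± 1.6 (SD over 5 libraries), ranked 20. By the share of the sum at its leading splice end, 95.03% for Bbs9 against a median of 60.1%, it ranked 6.

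Dnah8 and Rgs22 had more circRNAs and less concentrated pools. Dnah8, which encodes a dynein heavy chain of the sperm tail, had 51 circRNAs with a mean sum of 2566 SRPBM, 52.6% of it in the top circRNA and 56.3% at the leading end. Rgs22, a regulator of G-protein signalling, had 25 circRNAs with a mean sum of 1070 SRPBM, 20.3% of it in the top circRNA and 43.6% at the leading end. The ratio of the Bbs9 sum to the Ep400 sum, which does not depend on how a library is scaled, was 3.11 and 2.35 in control against 1.86, 2.20 and 1.69 in triptolide (two-sided exact permutation p = 0.1, or 0.15 adjusted over 3 ratios). To Dnah8 the ratio was 7.87 and 5.92 in control against 5.75, 4.604 and 5.98 in triptolide, so the groups overlapped (two-sided exact permutation p = 0.2, also after adjustment). To Rgs22 it was 32.6 and 15.6 in control against 8.998, 12.3 and 10.3 in triptolide (two-sided exact permutation p = 0.1, or 0.15 adjusted).

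The hosts with a pattern over the 5 libraries most like that of Bbs9 were Cfap61, Trim24 and Dync2h1. Likeness was the root mean square difference in log2(library sum divided by the mean of the library sums), over hosts with at least 10 circRNAs and a sum above 0 in every library (181 hosts). It was 0.10 for Cfap61, 0.11 for Trim24 and 0.12 for Dync2h1, against 0.25 for Dnah8 and 0.65 for Rgs22. Cfap61 is a protein of the sperm tail axoneme, and its sums were 1423 and 966 SRPBM in control against 648, 971 and 687 SRPBM in triptolide. Trim24, a transcriptional cofactor, had 886 and 518 against 476, 601 and 478 SRPBM. Dync2h1, the motor of retrograde transport in cilia, had 1409 and 1078 against 854, 996 and 805 SRPBM. All 3 were highest in control 1, as Bbs9 was, which follows largely from their choice by likeness to it.

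**Figure D5:**
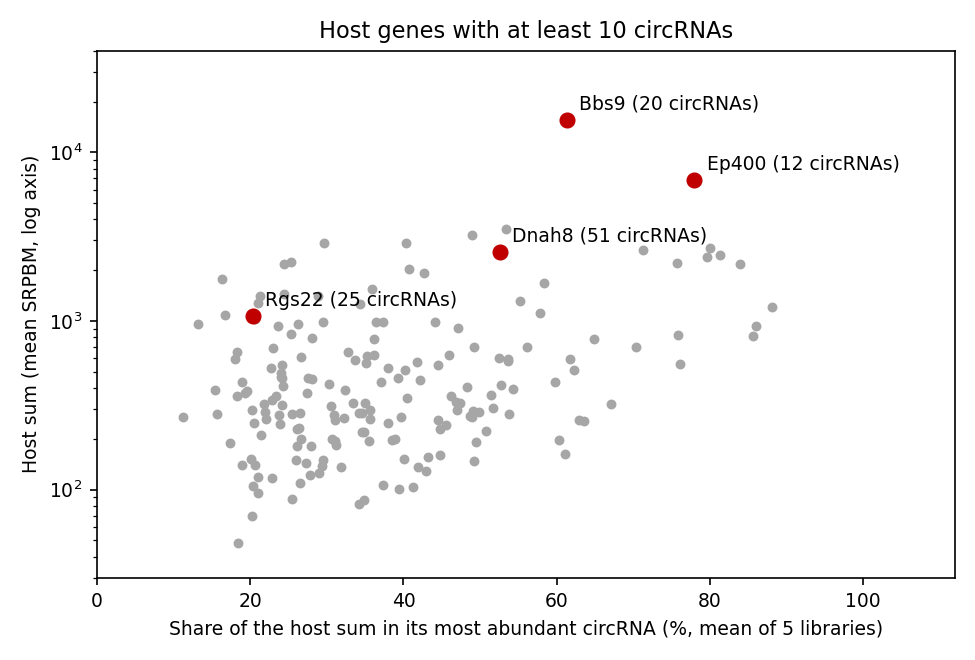
Mean summed SRPBM over 5 libraries (log axis) against the mean share of the host sum held by its most abundant circRNA (percent), 1 point for each of 184 host genes with at least 10 circRNAs. Bbs9 is the highest point at 15514 SRPBM, and Ep400, Dnah8 and Rgs22 are marked for comparison.

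The other genes of the BBSome gave almost no circRNAs. Of 7 other subunit genes, 5 were hosts (Bbs2, Bbs4, Bbs5, Bbs7 and Ttc8), with 6 circRNAs in all. Ttc8 had the most, at 26 and 107 SRPBM in control against 0, 26 and 34 SRPBM in triptolide. Bbs2 had 0 and 24 against 0, 0 and 26 SRPBM, Bbs5 had 0 and 24 against 0, 0 and 17, and Bbs7 had 24 in control 2 alone. The mean Bbs9 sum was 402 times that of Ttc8. None of 6 genes that assemble or recruit the BBSome was a host (Mkks, Bbs10, Bbs12, Arl6, Lztfl1 and Ift27).

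Other Bardet-Biedl genes and genes of intraflagellar transport, the two-way traffic along the cilium, were hosts in part, 3 of 8 and 8 of 21 genes, and most of the transport hosts were rare. Wdpcp had 23 circRNAs and 593 and 443 SRPBM in control against 388, 711 and 484 SRPBM in triptolide. Sdccag8, a centrosomal protein, had 332 and 190 against 257, 193 and 156 SRPBM, and Ift74 had 0 and 132 against 66, 122 and 77 SRPBM. Among the intraflagellar transport hosts, Ift81, a subunit that binds tubulin, had 332 and 305 against 170, 424 and 234 SRPBM, and Ift80 had 376 and 287 against 132, 263 and 250 SRPBM. Ift88 averaged 71.2 SRPBM, and the other 5 (Wdr19, Ift122, Ttc26, Ift140 and Wdr35) averaged 3.2 to 15.8 SRPBM. Over all 4 lists, 16 of 42 genes were hosts, 11 were tested and 0 passed in limma in either direction. Of these 11, 0 were at an unadjusted p under 0.05. The highest mean sum among them was 524 SRPBM, for Wdpcp. Dync2h1, named above for its likeness to Bbs9, was not on these lists. Its 22 circRNAs had a mean sum of 1028 SRPBM. In simulated reads, whose settings differ from these data, limma called 0 of 172 host genes with a 4-fold change. Its lack of calls is not taken to show that the listed genes were unchanged.

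A further 12 rows without a host gene touch the same region, and all 12 share a splice end with a Bbs9 circRNA. Of these, 4 start at 22643745 and run to other ends, at 22673416, 22682613, 22706922 and 22734290. Another 2 start at 22643757, 12 bases past the leading start, and run to 22670957 and 22679064. Another 3 start at 22887581 and end past the last Bbs9 circle, at 22906883, 22939049 and 22973708. All were rare, with at most 61 SRPBM in any library and 8 of them above 0 in a single library. Together they came to between 0.17% and 0.90% of the Bbs9 sum of a library.

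Of 16356 lncRNA loci in the deposited lncRNA table, 0 overlapped the span of the Bbs9 circRNAs. The nearest on one side was XLOC_192093 (chromosome 9, 22442977 to 22447225), antisense to 9530077C05Rik and 43593 bases before the first circle. Its expected counts were 24 and 20 in control and 106, 75 and 127 in the triptolide libraries, with a log2 fold change of 2.23 ± 0.32 (SE) and adjusted p = 3.1e-05 in edgeR, in which 7.27% of 6888 loci were called. On the other side, XLOC_187039 (chromosome 9, 22909160 to 22910059) had 4 counts in control 1 and 0 in the other libraries. The triptolide columns of the lncRNA and circRNA tables cannot be matched to each other, and linear Bbs9 mRNA was not analysed here.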

How the data were processed

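The authors deposited a table of SRPBM per circRNA, a score of whole numbers, and a lncRNA table of expected counts, per the file headers. HISAT2 2.0.1, bedtools 2.17.0, HTSeq 0.6.1 and DESeq are named, with no role, per the submitters' processing notes; the sources used here do not give the circRNA caller. Those notes name the human build hg19, but all 20 circles lie inside mouse Bbs9 in the RefSeq table for GRCm38.p6. Positions are printed as deposited, and whether they count from 0 or 1 is not given.

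Every value above 0 equalled a whole number of reads times a step per library, cut to a whole number (100% of values), and the smallest was 2 reads. Those reads served for counting intervals and for count tests. The main test was limma 3.58.1 (R 4.3.3, trend) on log2(SRPBM + 16) over all circRNAs, or all host gene sums, above 0 in at least 2 libraries, adjusted by Benjamini-Hochberg and called under 0.05. This scale understates changes of low circRNAs. Expected counts were rounded, summed per lncRNA locus and tested with edgeR 4.0.16 (filterByExpr, TMM, quasi-likelihood); DESeq2 1.42.0 and edgeR on reads were alternatives. Fits were tested on simulated data, in which reads had the same spread for all features and no floor of 2 reads. For single values, the 10 assignments of 5 libraries gave a two-sided exact permutation p, at smallest 0.1.

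Of the columns, 15 per-library columns were not used, including the mRNA table, which names no genes. Values per library were printed for the 10 circles with the highest mean, and the members, lists and rules were chosen with earlier results of these data known.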

Additional observations from a re-analysis of the deposited data

How the results depend on the processing

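The summed Bbs9 level was lower in triptolide under 15 of the 16 alternatives, and its log2 fold change lay between -0.93 and -0.26 with 1 library left out. It was 0 after quantile normalization, which sets the top host of every library to the same value. The count of Bbs9 circRNAs that passed in limma was 0, lay between 0 and 2 with 1 library left out, and was 2 with no filter on low values. Those 2 were the leading circle (adjusted p = 0.0031) and the circle from 22887581 to 22887996 (adjusted p = 8.2e-04), and the cause was not tested. Counting rows without a host gene, chosen after seeing the data, raised the circRNAs at the leading start from 6 to 10. The share of the leading circle stayed between 60.7% and 61.7% with 1 library left out. For the 10 named circles, the circle from 22655225 to 22679064 had a log2 fold change of 0.011, which was -0.021 with a pseudocount of 64 and -0.024 in DESeq2, and -0.67 to 0.69 with 1 library left out. That from 22490818 to 22514093 had -0.20, and -0.41 to 0.14 with 1 library left out. No paired analysis was possible because the triptolide columns of the circRNA table carry no replicate numbers of their own. Nor do the labels pair any control library with a triptolide library, so replicate numbers alone would not have made pairs. Depth limits the rare circles most, since the 8 that averaged under 20 SRPBM had at most 7 reads in any library.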

Other observations

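The 66 circRNAs that control 1 listed at 0, at 100 SRPBM or more in the other 4 libraries, had about the same span and level as the 280 it did not. Their median span was 17335 bases, against 16745 bases, and their median level over the other 4 libraries was 266 SRPBM, against 246 SRPBM. The Bbs9 circle from 22887581 to 22887996 was the shortest of the 66.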
